A study of Homo sapiens with 8 samples.

Results

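The genes described here are 5 ligands, 2 inhibitors and 3 target genes of the bone morphogenetic protein (BMP) and transforming growth factor beta (TGF-beta) pathways. They are BMP2, BMP4, BMP7, TGFB1, TGFB2, SMAD6, SMAD7, ID1, ID2 and ID3, and their probes were taken by gene name among the non-control probes of each array. The 10 genes, of 36337 gene names on the array, had 13 of the 50599 probes, since BMP7 has 3 probes and ID2 has 2. RNA of DLD1, an established human colorectal cancer cell line, was hybridised to 8 single-colour Agilent SurePrint G3 arrays in 4 groups of 2. All cells were transfected for 48 h and then kept for a further 24 h with an agent. The group siCONT mock had a control siRNA and the solvent ethanol, and the group siUHRF1 mock had 1 of 2 siRNAs against UHRF1 (siUHRF1-1 or siUHRF1-2) and ethanol. The groups siCONT TSA and siUHRF1 TSA had the same siRNAs with trichostatin A (TSA) at 300 nM, which blocks histone deacetylases. UHRF1 recruits the maintenance DNA methyltransferase to replicated DNA, and the design asks what its loss does to RNA levels with and without histone deacetylase inhibition. A siUHRF1 group is therefore 1 array for each siRNA, and knockdown was transient.

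BMP and TGF-beta ligands are secreted dimers that bind paired type I and type II receptors on the cell surface. The receptors phosphorylate SMAD proteins, which enter the nucleus with SMAD4 and switch on target genes, among them the ID genes after BMP and the inhibitors SMAD6 and SMAD7, which feed back on the receptors. In the gut, BMP signals favour differentiation of the epithelium above the crypt, TGF-beta restrains its growth, and both branches are often damaged in colorectal cancer.

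The 250 bases before the RefSeq start are shown for ID1, ID3, TGFB1 and TGFB2, since these 4 members changed with TSA in UHRF1-depleted cells, ID1 and ID3 downwards and TGFB1 and TGFB2 upwards. They are written 5′ to 3′ on the strand of the gene, from GRCh38.p14. Capitals mark the SMAD-binding letters GTCTG, which read as CAGAC on the other strand, and the GC box GGGCGG, which reads as CCGCCC there.
ID1, chr20:31605039-31605288, plus strand: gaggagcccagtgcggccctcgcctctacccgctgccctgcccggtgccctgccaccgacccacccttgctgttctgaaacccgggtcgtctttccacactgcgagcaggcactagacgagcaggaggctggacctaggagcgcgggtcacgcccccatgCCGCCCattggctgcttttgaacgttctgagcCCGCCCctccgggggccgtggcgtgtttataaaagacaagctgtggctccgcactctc
ID3, chr1:23559502-23559751, minus strand: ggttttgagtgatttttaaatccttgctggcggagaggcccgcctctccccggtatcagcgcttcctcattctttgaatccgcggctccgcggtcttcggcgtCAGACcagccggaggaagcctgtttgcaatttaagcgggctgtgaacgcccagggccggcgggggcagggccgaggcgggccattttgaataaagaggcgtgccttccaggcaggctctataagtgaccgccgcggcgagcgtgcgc
TGFB1, chr19:41353923-41354172, minus strand: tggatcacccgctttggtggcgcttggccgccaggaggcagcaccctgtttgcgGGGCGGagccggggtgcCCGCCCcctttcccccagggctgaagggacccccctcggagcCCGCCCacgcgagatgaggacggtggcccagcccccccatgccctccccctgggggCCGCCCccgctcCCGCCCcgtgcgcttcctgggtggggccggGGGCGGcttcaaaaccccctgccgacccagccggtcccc
TGFB2, chr1:218345086-218345335, plus strand: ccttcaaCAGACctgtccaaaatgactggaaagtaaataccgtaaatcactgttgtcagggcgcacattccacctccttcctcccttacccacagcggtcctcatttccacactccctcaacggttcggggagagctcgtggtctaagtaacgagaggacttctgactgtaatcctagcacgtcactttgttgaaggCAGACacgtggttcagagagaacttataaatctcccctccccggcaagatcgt

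The pair that fell and the pair that rose did not divide by these letters. The ID1 window held 0 SMAD-binding matches and 2 GC boxes, and the ID3 window held 1 and 0. The TGFB1 window held 0 and 6, and the TGFB2 window held 2 and 0. Of 35116 windows of this length, 38.0% held the SMAD-binding letters and 42.6% held a GC box, so a match is common. The GC-rich BMP element GGCGCC, which reads the same on both strands, was in none of the 4 windows and in 16.4% of all windows. The windows also differed in CG dinucleotides, the sites of DNA methylation, with 19 in ID1, 24 in ID3, 21 in TGFB1 and 11 in TGFB2. The quartiles over all windows were 3, 11 and 23, so ID3 lay above the upper quartile and TGFB2 at the median. Promoter entries matched 8 of the 10 members. The other matched members had between 2 and 29 CG dinucleotides over their windows. Methylation of these windows was not measured on the arrays.

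A level is a log2 intensity from which the array's own 75th percentile was subtracted, so 0 is a fairly bright probe. RNA came from whole cultures, so fewer cells with a transcript and less of it per cell cannot be told apart. Levels of different probes depend on the probe and are not set against each other. A probe was tested where at least 1 of the groups compared had it well above background on each array, and a change was called at a Benjamini-Hochberg adjusted p under 0.05 over all probes tested and a fold of at least 2. Arrays had 43.3% to 48.0% of probes above background. The UHRF1 probe A_23_P208880 read 1.98 and 2.01 in siCONT mock, 0.34 and -0.02 in siUHRF1 mock, 1.04 and 1.01 in siCONT TSA, and -1.56 and -2.14 in siUHRF1 TSA, so both siRNAs lowered their target under either agent. The probe was also lower with TSA, by -0.97 in siCONT (limma adjusted p = 0.0175, under 2-fold) and -2.01 in depleted cells (adjusted p = 0.00133). Depletion was 3.56-fold under mock and 7.33-fold under TSA (interaction -1.04, adjusted p = 0.099). The other UHRF1 probe gave 3.26-fold under mock and at least 3.67-fold under TSA, where it was not well above background after depletion. With TSA in siCONT that probe was 2.18-fold lower (limma adjusted p = 0.0493), which was called. The siUHRF1 groups thus did not have equal UHRF1 levels. All 9 colon epithelial markers were above background on all arrays, while 0 of 6 fibroblast, 0 of 4 endothelial and 1 of 5 leukocyte markers were. Above background on no array were 3 fibroblast, 2 endothelial and 3 leukocyte markers, so the rest were seen on at least 1 array. The siCONT arrays of an agent differed by 1.16 times the spot noise under mock and 1.08 times under TSA, against 12.5 and 10.3 times between the siRNAs. They were counted as 1 sample in means, and counts of calls are also given from a second fit in which they are averaged. That fit did not call UHRF1 depletion itself on A_23_P208880, under mock (limma adjusted p = 0.252) or TSA (adjusted p = 0.0535). Mock arrays lay in row 1 of the slide and TSA arrays in row 2, and siCONT arrays in columns 1 and 2 and siUHRF1 arrays in columns 3 and 4, so agent and slide row, and siRNA and slide column, cannot be told apart.

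Of the members, 7 (BMP2, BMP4, TGFB1, SMAD7, ID1, ID2 and ID3) were above background on all arrays, and BMP7, TGFB2 and SMAD6 on some. UHRF1 depletion under mock called BMP7 alone as higher, 1 of 9 members tested, where 4.12% of all probes were called. TSA in siCONT cells changed 3 of 9, with TGFB2 higher and SMAD6 and ID3 lower, where 18.6% of all probes were called. UHRF1 depletion plus TSA against siCONT mock changed 2 of 10, TGFB2 higher and ID3 lower, at a background of 25.6%. TSA in UHRF1-depleted cells changed 4 of 10, TGFB1 and TGFB2 higher and ID1 and ID3 lower, at a background of 20.7%. The interaction, the effect of UHRF1 depletion under TSA minus that under mock, was called for TGFB1, 1 of 10, at a background of 4.89%. BMP7, SMAD6 and TGFB2 entered their comparisons through the group where they were higher, the other group not being well above background. With probes dim on any array left out, the members called were 0 for depletion under mock, 1 for TSA in siCONT, 1 for the combination, 3 for TSA in depleted cells and 1 for the interaction. The backgrounds with that filter were 3.17%, 14.6%, 19.5%, 15.6% and 5.25% in the same order. No test set these shares against the background, and nothing particular to the members is read from them.

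UHRF1 depletion under TSA changed 0 of 10 members by limma, where 8.27% of all probes were called. At an unadjusted p under 0.05 and 2-fold, 2 passed, BMP7 and SMAD6, beside 2579 of all 23846 probes tested, and 1 member did where each siCONT pair was averaged. That second fit called 0 members in UHRF1 depletion under mock (background 0.0223%), 0 in TSA in siCONT (1.56%), 0 in the combination (15.4%) and 0 in UHRF1 depletion under TSA (0.692%). At an unadjusted p under 0.05 and 2-fold it had 1, 2, 2 and 1 members in these comparisons. Of all probes, 1299 of 22396, 3895 of 23243, 5945 of 23738 and 2229 of 23846 passed there. The second fit kept ID3 and TGFB1 in TSA in UHRF1-depleted cells (17.6%), and called no probe at all in the interaction (0%). There 1 member passed unadjusted with 2-fold, beside 2118 of 24591 probes. Beside these counts, the members' median log2 change was 0.11, -0.04, 0.32, 0.11, -0.21 and -0.14 in the order depletion under mock, TSA in siCONT, combination, depletion under TSA, TSA in depleted cells and interaction. Over all probes tested it was -0.10, -0.11, -0.14, 0.00068, -0.04 and 0.06. The comparisons share arrays and are given side by side. The calls made in both fits were thus those of ID3 (lower) and TGFB1 (higher) with TSA after UHRF1 depletion. That comparison uses no siCONT array, so averaging the siCONT pairs left its changes unaltered and moved only the error estimate. Over all probes its calls went from 4953 to 4211, so being kept there does not set these members apart. With the methods' t-test neither passed (adjusted p = 0.189 and 0.157). It called none of the 23913 probes of that comparison, so failing it does not set these members apart either. By the same test both passed at an unadjusted p under 0.05 and 2-fold, beside 3286 of all probes.

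**Figure D1:**
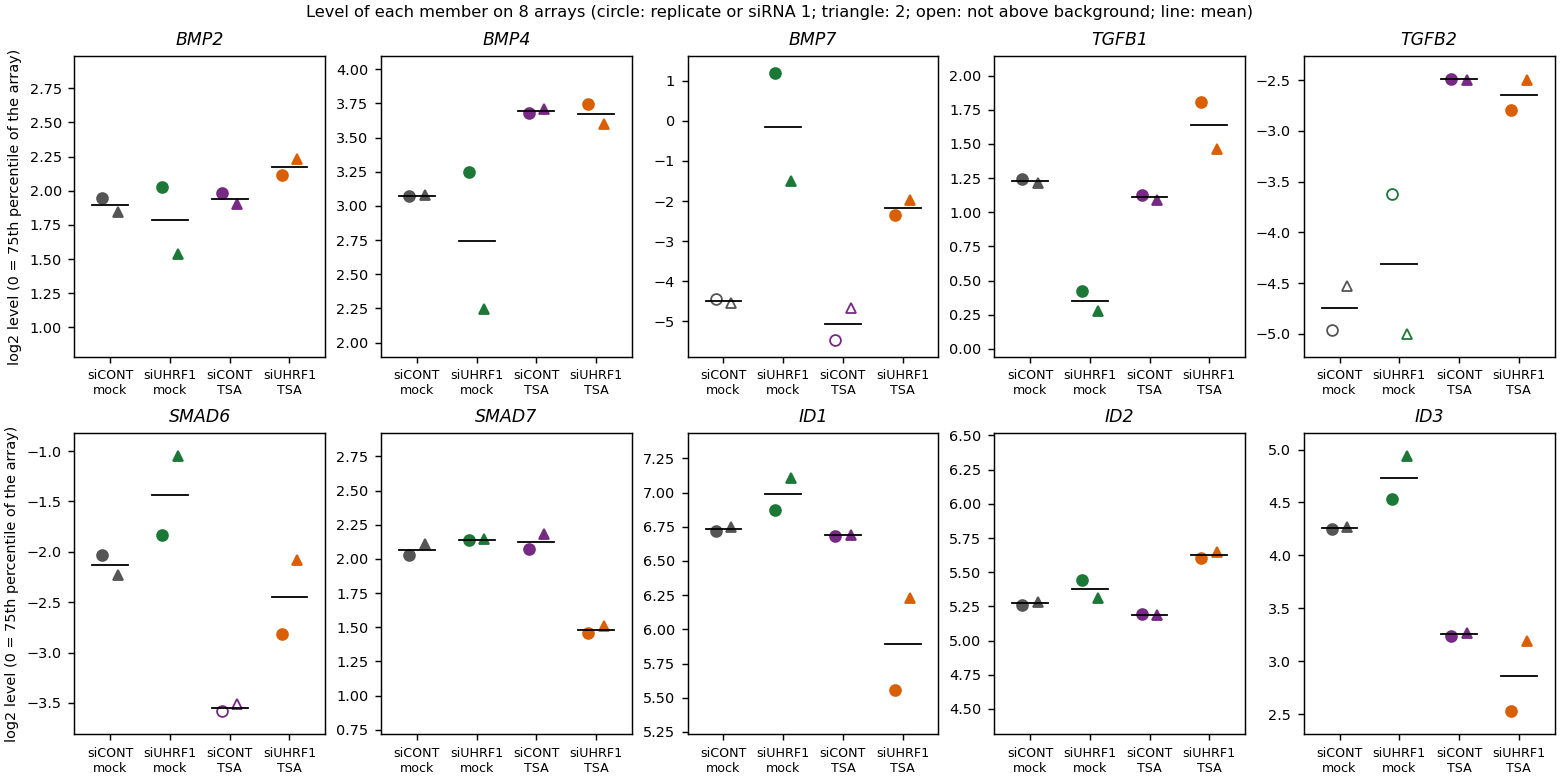
Levels of the 10 members (log2, 0 is the 75th percentile of the array) on each of the 8 arrays, by group, each panel on its own scale. Circles are replicate or siRNA 1, triangles replicate or siRNA 2, open symbols arrays where the probe was not well above background, and lines group means. TGFB1 is lowest in siUHRF1 mock (0.42 and 0.27) and highest in siUHRF1 TSA (1.81 and 1.47), and ID3 is lower on all 4 TSA arrays than on all 4 mock arrays.

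Among the ligands, TGFB1 lay below siCONT after UHRF1 depletion under mock and above it under TSA. TGFB1, the most widely expressed TGF-beta ligand, was read by 1 probe that was spotted 10 times on each array, so its levels are means of 10 spots. The probe is printed because it spans a splice junction of the mature ligand's coding sequence, hg19 positions chr19:41838142-41847802 on the minus strand, with 60 bases spread over 9661.
TGFB1 probe A_24_P79054: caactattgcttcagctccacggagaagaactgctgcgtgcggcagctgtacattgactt

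TGFB1 read 1.24 and 1.22 in siCONT mock and 0.42 and 0.27 in siUHRF1 mock. Under TSA it read 1.13 and 1.09 in siCONT and 1.81 and 1.47 in siUHRF1. Both siRNA arrays thus lay below siCONT under mock and above it under TSA, and the groups did not overlap. The spots showed the same order, with 0.10 to 0.59 over the spots of siUHRF1 mock and 1.08 to 1.36 over those of siCONT mock. The means were 0.35 ± 0.10 (SD, n = 2 siRNAs) in siUHRF1 mock and 1.64 ± 0.24 (SD, n = 2 siRNAs) in siUHRF1 TSA, beside siCONT means of 1.23 and 1.11.

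The difference in TGFB1 after UHRF1 depletion under mock was -0.88 on the log2 scale (SE 0.15, adjusted p = 0.0268 by limma), which is 1.84-fold and so not called. Under TSA the difference was 0.53 (SE 0.15, adjusted p = 0.0587). TSA raised TGFB1 by 1.29 (SE 0.15, 2.44-fold, adjusted p = 0.00155) in depleted cells, and the second fit gave an adjusted p of 0.0232. With median scaling that change was 0.90 (adjusted p = 0.0101), under 2-fold, and was not called. In siCONT cells TSA gave -0.12 (95% interval -0.48 to 0.24). The difference between the effects of depletion, the interaction, was 1.41 (SE 0.21, adjusted p = 0.0261). This call did not hold in the second fit (adjusted p = 0.463), which called no probe in the interaction. Nor did it hold without the filter on dim probes or with median scaling of the arrays (1.065, adjusted p = 0.0666). It was also lost without any 1 of the 4 siCONT arrays, where calls fell over all probes too. That loss does not set TGFB1 apart.

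TGFB2, a TGF-beta ligand with roles in development and matrix formation, was seen only on TSA arrays. Its probe A_24_P402438 (hg19 chr1:218614784-218614843) was not well above background on any mock array. Under TSA it read -2.49 and -2.50 in siCONT and -2.79 and -2.50 in siUHRF1, above background on all 4 arrays. The higher level under TSA was at least 1.87-fold in siCONT (adjusted p = 0.00981) and at least 1.85-fold in depleted cells (adjusted p = 0.0256). For the combination against siCONT mock it was at least 1.68-fold (adjusted p = 0.00947). These bounds are under 2-fold, and the calls rest on fitted folds of 4.78, 3.17 and 4.30 over signals that were not well above background. The siRNAs did not differ from siCONT under TSA by more than the error allows (-0.15, 95% interval -1.21 to 0.90, adjusted p = 0.832). The calls did not hold with the siCONT arrays as 1 sample (adjusted p 0.165, 0.0706 and 0.0728) or after normexp background correction, where the changes were 0.30, 0.42 and 0.29. They were lost in 5, 11 and 5 of 20 alternatives, the one in depleted cells also with quantile normalization (1.355, adjusted p = 0.0832), median scaling (1.275, adjusted p = 0.0749) and no filter on dim probes (adjusted p = 0.0607). Leaving out 1 array also lost each call: siCONT mock 1 and either siCONT TSA array for the first, siUHRF1 mock 2 and either siUHRF1 TSA array for the second, and siCONT mock 1 and siUHRF1 TSA 2 for the third. In those fits calls also fell over all probes, except without siUHRF1 mock 2.

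BMP7, a BMP ligand best known from kidney and bone development, was not well above background in siCONT cells and was above it in depleted cells. Its 3 probes lie far apart on the minus strand of chromosome 20 and did not read alike. The 5′-most probe (hg19 chr20:55803380-55803439) and the last 30 bases of the middle probe (whole probe at hg19 chr20:55745555-55745614) are shown because the reported change rests on the middle one. Capitals mark AATAAA, the usual polyadenylation signal.
BMP7 5′-most probe A_24_P91566: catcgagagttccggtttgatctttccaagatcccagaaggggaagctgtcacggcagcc
BMP7 middle probe A_23_P68487, last 30 bases: tAATAAAtgtcacAATAAAacgaatgaatg

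The middle probe held 2 of these hexamers, which 0.19% of the 50599 probes of 60 bases do, and the 5′-most and 3′-most probes held 0. On the middle probe, none of the 4 siCONT arrays was well above background. BMP7 read 1.18 and -1.50 in siUHRF1 mock and -2.34 and -1.99 in siUHRF1 TSA, so all 4 siRNA arrays were above background. The siRNAs differed widely under mock, with a mean of -0.16 ± 1.89 (SD, n = 2 siRNAs), and lay close under TSA, with -2.17 ± 0.25 (SD, n = 2 siRNAs).

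UHRF1 depletion under mock left BMP7 at least 9.43-fold higher (adjusted p = 0.0331 by limma). That size rests on siUHRF1-1, since the fitted change, which is no bound, was 4.34 with both siRNAs, 2.998 without siUHRF1-1 (adjusted p = 0.0123) and 5.67 without siUHRF1-2 (adjusted p = 0.0113). Under TSA it was at least 2.98-fold higher (adjusted p = 0.0575), and the combination against siCONT mock was at least 2.35-fold higher (adjusted p = 0.0556), neither of them called. TSA in depleted cells gave -2.01 (SE 0.81, adjusted p = 0.0964). The mock call was not kept in the second fit (adjusted p = 0.339), with the replicate block or after normexp correction (1.54, adjusted p = 0.077). It was also lost without any 1 of the 4 siCONT arrays, where calls fell over all probes too. That loss does not set BMP7 apart. The call was lost in 11 of 20 alternatives in all. The other BMP7 probes gave no tested change. The 5′-most probe was above background on the siUHRF1-1 mock array alone, at -2.92, which is also where the middle probe was brightest. The 3′-most probe (hg19 chr20:55743791-55743844) was above background on no array.

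**Figure D2:**
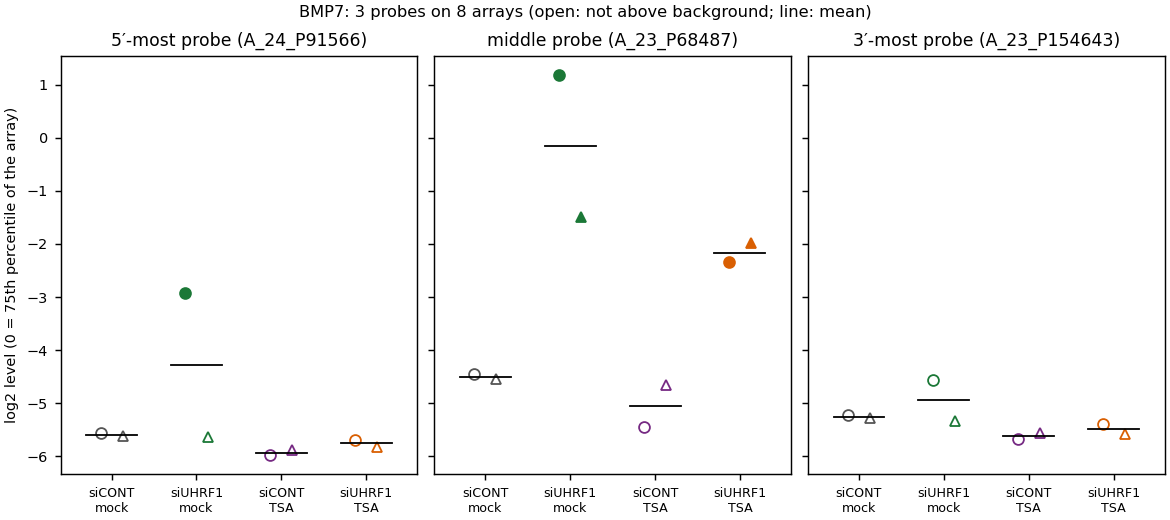
Levels (log2, 0 is the 75th percentile of the array) of the 3 BMP7 probes on the 8 arrays, ordered from 5′ to 3′ along the gene. Circles are replicate or siRNA 1, triangles 2, open symbols not well above background and lines group means. The middle probe is above background on the 4 siRNA arrays, the 5′-most probe on the siUHRF1-1 mock array (-2.92) and the 3′-most probe on none.

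BMP4 and BMP2, ligands that signal through the BMP-specific SMADs, were bright on every array and were called in no comparison by limma. BMP4 read 3.08 and 3.08 in siCONT mock, 3.25 and 2.24 in siUHRF1 mock, 3.68 and 3.71 in siCONT TSA, and 3.75 and 3.60 in siUHRF1 TSA. All TSA arrays lay above all mock arrays. The differences were 0.62 (SE 0.31, adjusted p = 0.154) in siCONT and 0.93 (SE 0.31, adjusted p = 0.055) in depleted cells, both short of the threshold. The latter was called with quantile normalization (1.09, adjusted p = 0.0277), with the 75th percentile over probes detected on all arrays (1.09, adjusted p = 0.0292) and without siUHRF1 mock 1 (1.43, adjusted p = 0.00189). It was 0.43 (adjusted p = 0.0332) without siUHRF1 mock 2 and 0.54 (adjusted p = 0.268) with median scaling, so its size rests on the siUHRF1 mock arrays. BMP2 read 1.95 and 1.85 in siCONT mock, 2.03 and 1.54 in siUHRF1 mock, 1.99 and 1.90 in siCONT TSA, and 2.12 and 2.23 in siUHRF1 TSA. Its largest difference, TSA in depleted cells, was 0.39 (95% interval -0.04 to 0.83, adjusted p = 0.133).

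Of the inhibitory SMADs, SMAD6 fell with TSA in siCONT cells and SMAD7 had its lowest levels where UHRF1 depletion and TSA were combined. SMAD6, which blocks mainly the BMP branch, read -2.04 and -2.23 in siCONT mock and -1.83 and -1.05 in siUHRF1 mock. Under TSA it was not well above background in siCONT, where it measured -3.58 and -3.52, and read -2.81 and -2.09 in siUHRF1. The siCONT TSA arrays thus lay below all others, and the siUHRF1 TSA arrays overlapped siCONT mock. SMAD6 was at least 2.66-fold lower with TSA in siCONT cells (adjusted p = 0.018). In depleted cells TSA gave -1.01 (SE 0.33, adjusted p = 0.0521), and depletion under TSA left it at least 2.14-fold higher (adjusted p = 0.0669), neither of them called. The siCONT call did not hold in the second fit (adjusted p = 0.24) or after normexp correction (-0.46). It was also lost without any 1 of the 4 siCONT arrays, where calls fell over all probes too.

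SMAD7, which blocks both branches at the receptor, read 2.03 and 2.11 in siCONT mock, 2.14 and 2.14 in siUHRF1 mock, and 2.07 and 2.18 in siCONT TSA. In siUHRF1 TSA it read 1.46 and 1.51. The other 6 arrays lay within 2.03 and 2.18, so the combined arrays stood apart from them. The difference from siCONT mock was -0.59 (SE 0.11, adjusted p = 0.00707), from siCONT TSA -0.65 (SE 0.11, adjusted p = 0.0164) and from siUHRF1 mock -0.66 (SE 0.11, adjusted p = 0.00567). Each was under 2-fold, between 1.501-fold and 1.58-fold, and was not called. The interaction was -0.72 (SE 0.16, adjusted p = 0.0532). With the siCONT arrays as 1 sample the adjusted p were 0.184, 0.361 and 0.0858. Median scaling put the last 2 differences at -1.001 and -1.05, past 2-fold, while the median change of all probes there was -0.35 and -0.43.

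The ID genes encode helix-loop-helix proteins without a DNA-binding region, which hold basic helix-loop-helix factors off DNA and delay differentiation. ID3 fell with TSA under either siRNA condition. Its probe lies at hg19 chr1:23885666-23885725 on the minus strand and is printed because it reads the coding sequence, within the second helix.
ID3 probe A_23_P137381: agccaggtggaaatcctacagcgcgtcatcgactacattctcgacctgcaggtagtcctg

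ID3 read 4.25 and 4.26 in siCONT mock, 4.53 and 4.94 in siUHRF1 mock, 3.24 and 3.27 in siCONT TSA, and 2.53 and 3.19 in siUHRF1 TSA. Every TSA array lay below every mock array. In siCONT cells TSA lowered ID3 by -1.003 (SE 0.24, 2.00-fold, adjusted p = 0.021), in depleted cells by -1.87 (SE 0.24, 3.66-fold, adjusted p = 0.00228), and the combination stood -1.40 (SE 0.24, 2.63-fold, adjusted p = 0.00512) from siCONT mock. The siCONT change sat at the 2-fold limit and was lost in 9 of 21 alternatives. In the second fit the 3 adjusted p were 0.289, 0.0186 and 0.0708. Whether TSA acted more strongly after depletion was not shown, with an interaction of -0.87 (SE 0.34, adjusted p = 0.163).

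ID1 read alike with and without TSA in siCONT cells and fell with TSA after UHRF1 depletion. Its probe A_23_P252306 lies at hg19 chr20:30194158-30194217. ID1 read 6.72 and 6.75 in siCONT mock, 6.88 and 7.11 in siUHRF1 mock, 6.69 and 6.69 in siCONT TSA, and 5.56 and 6.23 in siUHRF1 TSA. The siUHRF1 TSA arrays were the lowest, and siRNA 1 lay 1.13 below the siCONT TSA mean while siRNA 2 lay 0.46 below it. TSA in depleted cells gave -1.10 (SE 0.23, 2.14-fold, adjusted p = 0.0115). The combination against siCONT mock was -0.84 (SE 0.23, adjusted p = 0.025), under 2-fold. In siCONT the effect of TSA was -0.04 (95% interval -0.59 to 0.51). The interaction was -1.05 (SE 0.32, adjusted p = 0.101), so a difference between siCONT and depleted cells was not shown. The call in depleted cells was lost in 7 of 21 alternatives, among them the second fit (adjusted p = 0.0619), without siUHRF1 TSA 1 (-0.76) and without siUHRF1 mock 2 (-0.98).

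ID2 had its highest levels in siUHRF1 TSA, by a small margin. It read 5.26 and 5.29 in siCONT mock, 5.45 and 5.31 in siUHRF1 mock, 5.19 and 5.19 in siCONT TSA, and 5.61 and 5.65 in siUHRF1 TSA. The siUHRF1 TSA arrays were the highest of the 8, by 0.35 (SE 0.11, adjusted p = 0.0406) over siCONT mock and 0.44 (SE 0.11, adjusted p = 0.0444) over siCONT TSA, both far under 2-fold. The other ID2 probe, 4.08 to 4.15 in siCONT mock and 4.35 to 4.36 in siUHRF1 TSA, gave 0.24 (adjusted p = 0.108) and 0.31 (adjusted p = 0.0931).

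**Figure D3:**
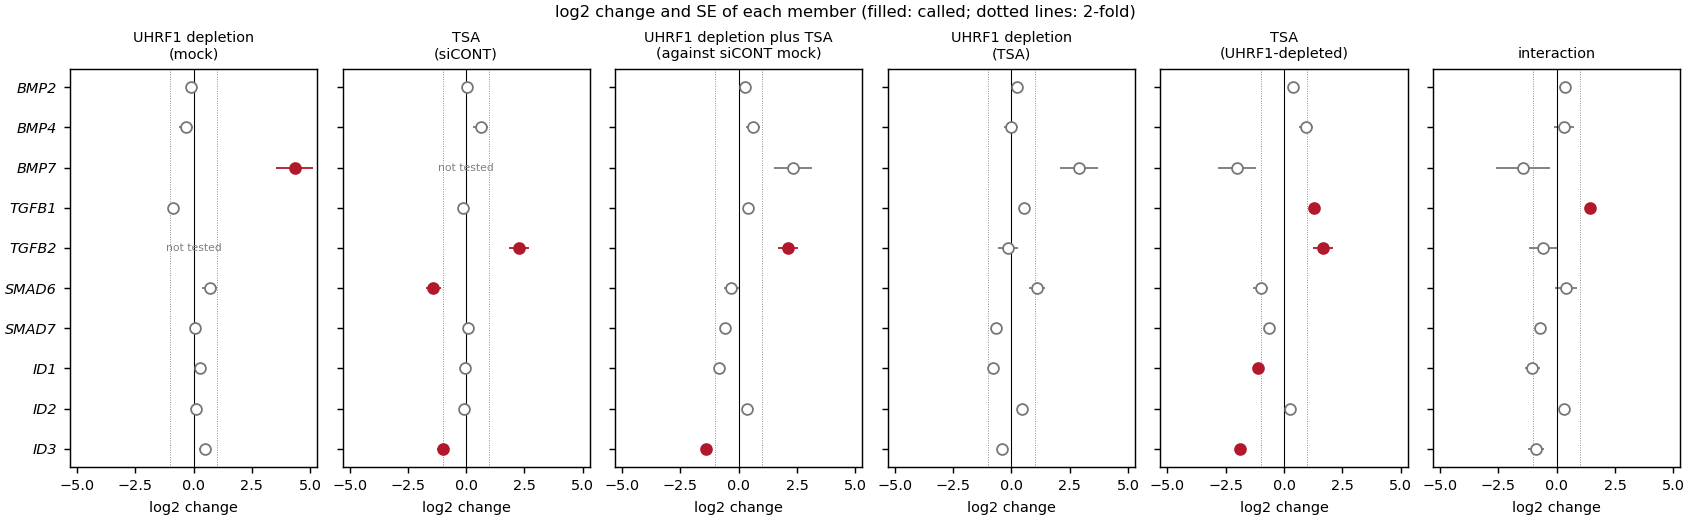
Fitted log2 change of each member, with its SE, in the 5 comparisons and in the interaction. Filled red points were called, open grey points were not, dotted lines mark 2-fold, and fitted changes of probes dim in 1 group are not bounds. ID3 falls in the 3 comparisons that add TSA (-1.003, -1.40 and -1.87), and TGFB1 crosses from -0.88 in depletion under mock to 0.53 in depletion under TSA.

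**Figure D4:**
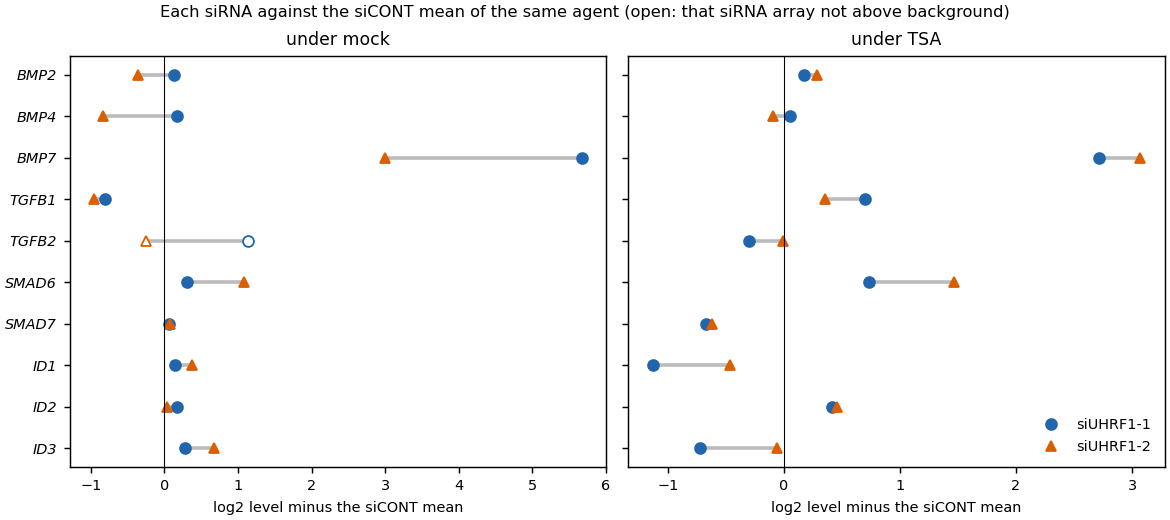
Level on each siUHRF1 array minus the siCONT mean of the same agent (log2), with siUHRF1-1 as blue circles and siUHRF1-2 as orange triangles. Open symbols mark arrays where the probe was not well above background, and grey lines join the siRNAs. SMAD7 and ID2 differ little between siRNAs, while BMP7 under mock (5.67 and 2.998) and ID1 under TSA (-1.13 and -0.46) differ more.

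The siRNAs agreed in sign for some members and not for others. Under mock they stood on opposite sides of siCONT for BMP2 (0.13 and -0.36) and BMP4 (0.17 and -0.83). For TGFB1 both were below siCONT under mock (-0.81 and -0.95) and above it under TSA (0.70 and 0.36). For SMAD7 both were 0.07 to 0.08 above under mock and -0.67 and -0.62 under TSA. ID3 under TSA was -0.72 with siRNA 1 and -0.06 with siRNA 2. Opposite signs were also seen for TGFB2 under mock (1.13 and -0.25), where it was dim, and for BMP4 under TSA (0.06 and -0.10). The other members differed in spread, such as ID2 (0.17 and 0.04), SMAD6 (0.30 and 1.09) and BMP7 (5.675 and 2.998) under mock.

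The pattern over the 8 arrays was set beside 15200 genes above background on all arrays, by Pearson's r, for the 3 members that were above background on all arrays and whose group means span at least 1. ID3 was most like RABEPK, PTPA and NFKBIA (r = 0.996 each), ID1 most like AKAP7, SNORA70D and POLE3 (r = 0.991 each), and TGFB1 most like NAPG (r = 0.986), TEP1 (r = 0.986) and LOC642311 (r = 0.985). These values describe 8 arrays in 4 groups that share scaling and siCONT arrays, and with so many genes compared high values arise easily.

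Other genes of the pathway were taken from 7 lists of 105 genes in all, of which 104 were on the array. UHRF1 depletion under mock called 0 of 49 tested by limma, with 13 at an unadjusted p under 0.05, 1 of them past 2-fold, and 0 in the second fit. TSA in siCONT called 10 higher and 6 lower of 55, the combination 12 higher and 5 lower of 56, and TSA in depleted cells 10 higher and 2 lower of 57. UHRF1 depletion under TSA called 9 higher and 1 lower of 57, and the interaction 5 higher and 0 lower of 60. In percent these are 0, 29.1, 30.4, 21.1, 17.5 and 8.33, beside the backgrounds above. The second fit left 1, 8, 12, 1 and 0 after the first. In the combination the median change of the tested genes was 0.07, beside -0.14 over all probes.

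Among other ligands and receptors, none of the 4 tested BMP and GDF ligands was called in the combination by limma, and 2 had an unadjusted p under 0.05. The receptors had 3 higher and 0 lower of 11, beside a background of 25.6%, and 1 call in the second fit. INHBA, a subunit of activin A, was at least 1.35-fold higher. ACVRL1, a type I receptor known from vessels, was dim (not well above background) on the 6 arrays outside siUHRF1 TSA. In siUHRF1 TSA it read -1.999 and -1.34, at least 3.31-fold above siCONT mock, and it entered the tests through that group alone. Its fitted interaction, 3.29 (adjusted p = 0.0249 by limma), was taken over dim signals in the other groups and is no bound. ACVR1C, a type I receptor of the activin branch, rose by 1.098 with an interaction of 1.28, and ACVR2A, a type II receptor, rose by 1.22. In the second fit neither rise was called (adjusted p = 0.0506 and 0.0956), nor the interactions of ACVRL1 and ACVR1C (adjusted p = 0.342 and 0.463). ACVR1C had 3 probes, of which 1 was above background on any array. ACVR2A was also called higher with TSA in siCONT, though not in the second fit, at a mean of 0.04 beside 0.10 in siUHRF1 TSA. All 6 receptor-regulated and common SMADs were measured, and SMAD5, of the BMP branch, fell by 1.06 (second fit, adjusted p = 0.081). The other SMAD5 probe was above background on no array.

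The secreted antagonists and latency proteins had 5 higher and 0 lower of 10 tested in the combination, with a median change of 1.003, where 25.6% of all probes were called, and 4 calls in the second fit. CHRD, encoding the BMP antagonist chordin, read -2.54 and -3.21 in siCONT mock and 0.67 and 0.44 in siUHRF1 TSA, a rise of 3.43 (SE 0.32, adjusted p = 0.000581). The siCONT TSA arrays lay between, at -0.62 and -0.82. The other CHRD probe was above background on no array. LRRC32, which tethers latent TGF-beta, was at least 1.37-fold higher, and FSTL3, which binds activin, rose by 1.86. CHRD and FSTL3 were also called higher with TSA in siCONT, though not in the second fit. Of the 10 intracellular regulators tested, 0 were called by limma in either fit, and 5 had an unadjusted p under 0.05.

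Other transcripts that respond to BMP or TGF-beta went both ways, 3 higher and 4 lower of 11, beside a background of 25.6%, with 2 calls in the second fit. CCN2, a matricellular protein, was dim on all mock arrays and at least 8.27-fold higher in the combination. CDKN2B, an inhibitor of the G1 kinases, was at least 3.76-fold higher. GADD45B, a stress-response gene, fell by 1.95 and TGFBI, a matrix protein, fell by 1.68. The second fit did not call CDKN2B, GADD45B or TGFBI (adjusted p = 0.0732, 0.0897 and 0.0911). CCN2 and CDKN2B were also called higher and TGFBI lower with TSA in siCONT, where the second fit called 1 of the list. Their siCONT TSA means were -0.87, -1.575 and 3.35, beside -0.35, -1.485 and 3.37 in siUHRF1 TSA. None of these was called for depletion under TSA. In the interaction SNAI1, a repressor of E-cadherin, stood at 2.29 and MSX1, a homeobox factor, at 1.77. Both were lower with TSA in siCONT, by -1.41 and -1.43, and higher with depletion under TSA, by 2.48 and 1.42. With each siCONT pair averaged no interaction was called.

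**Figure D5:**
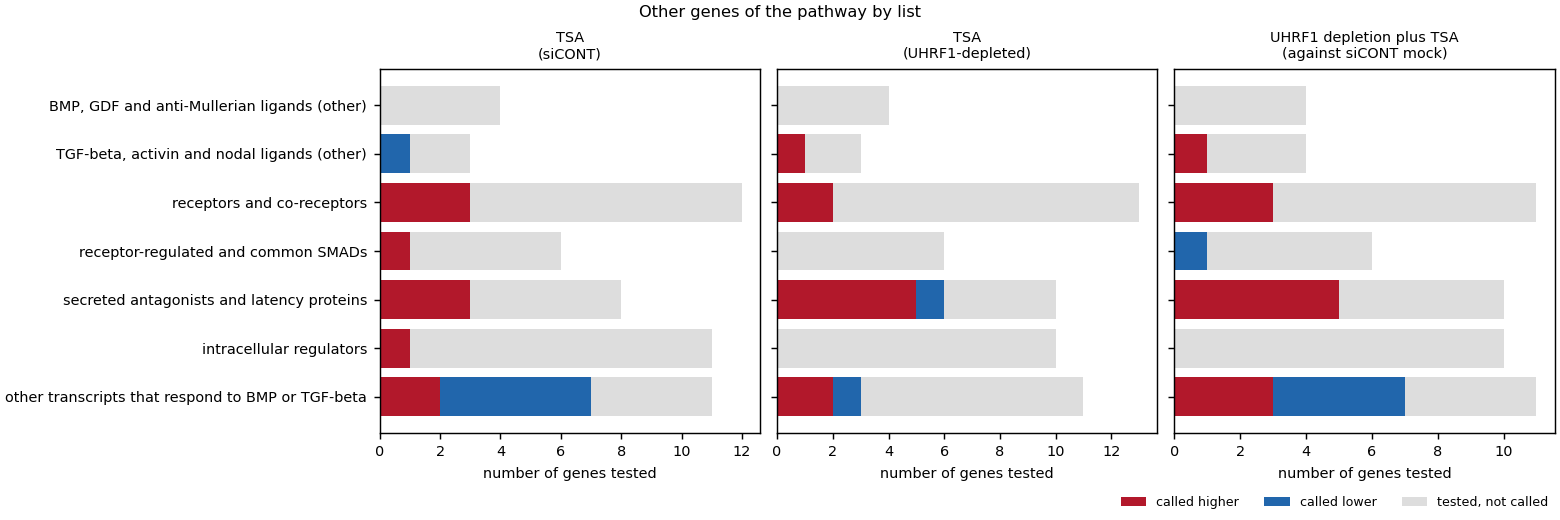
Number of tested genes of each pathway list called higher (red), called lower (blue) or not called (grey) in 3 comparisons that add TSA. Secreted antagonists and latency proteins had 3 of 8 called higher in siCONT cells, 5 of 10 (and 1 lower) in depleted cells and 5 of 10 in the combination, beside 18.6%, 20.7% and 25.6% of all probes. In the second fit 0, 6 and 4 of the list were called.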

How the data were processed

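Total RNA was labelled with Cy3 and hybridised to 8 arrays, scanned as 1 slide. Per the file headers, the authors' Agilent Feature Extraction 10.7.3.1 wrote a background-subtracted intensity for each spot, not scaled between arrays. Flags in the same deposited files (a score of 0 or 1, "well above background") were used as given. GeneSpring GX is named in the methods without its normalization. Spots of a probe were averaged and outlier spots left out. From log2 intensity minus the 75th percentile of the array, 4 group means were fitted to all 8 arrays with limma 3.58.1 in R 4.3.3 (two-sided), tested on simulated data first. A gene with several probes was represented by the probe with the highest mean. For a probe dim in a whole group, "at least" sets the brighter mean against the higher of the array's lowest signal above background and the dim signal. Values of the deposited series table were 0.995 to 1.005 times those of the arrays. Arrays per group limit precision, and whether siCONT arrays were separate cultures is not given in the sources used here, so p-values may measure technical spread. Pathway genes were named by rule: up to 4 called genes a list, largest change first, in the combination and the interaction, except that 1 item is not reported here. Members and lists were chosen with earlier results of these data known. Names came from the files. Alternatives were other scalings, background corrections, filters, fits and left-out arrays.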

Additional observations from a re-analysis of the deposited data

Results flagged for a closer look

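TGFB1 stood out because its interaction of UHRF1 depletion and TSA was called by limma. The interaction was 1.41 on the log2 scale, from -0.88 under mock to 0.53 under TSA, with both siRNAs below siCONT under mock and above it under TSA. Neither of these differences was called alone. The interaction call was lost in 7 of 18 alternatives, among them the second fit (adjusted p = 0.463) and the fits without any 1 siCONT array. In these fits calls fell over all probes too. No outlier was sought, since groups of 2 arrays are too small for it.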

How the results depend on the processing

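Counts of called members are given in the order TSA in depleted cells, TSA in siCONT, depletion under TSA, depletion under mock, combination and interaction, and were 4, 3, 0, 1, 2 and 1 as reported. They were 5, 2, 0, 1, 2 and 1 with quantile normalization, 4, 2, 0, 1, 3 and 1 with the 75th percentile over probes detected on all arrays, 4, 3, 2, 1, 3 and 1 with median scaling, and 3, 0, 0, 0, 1 and 2 after normexp correction. Of all probes, quantile normalization called 21.3%, 17.4%, 8.20%, 3.38%, 25.4% and 4.63%. The percentile over detected probes called 20.6%, 18.3%, 8.38%, 4.18%, 24.8% and 4.96%. Median scaling called 28.2%, 18.8%, 12.6%, 3.80%, 34.6% and 6.40%, and normexp correction 9.87%, 7.35%, 3.12%, 1.34%, 11.1% and 3.15%. They were 3, 2, 0, 0, 2 and 0 with no filter on dim probes, 3, 1, 0, 0, 1 and 1 with probes dim on any array left out, 2, 0, 0, 0, 0 and 0 with each siCONT pair averaged, 5, 3, 0, 1, 2 and 1 with the mean over a gene's probes, and unaltered with the series table. With no filter 10.3%, 8.33%, 3.19%, 0.802%, 12.8% and 0.421% of all probes were called. The mean over a gene's probes called 21.4%, 18.6%, 9.13%, 4.79%, 26.7% and 5.09% of all genes tested. With only the groups compared the counts were 2, 3, 1, 0 and 3, beside 18.2%, 19.9%, 8.87%, 0.272% and 25.4% of all probes. The methods' t-test gave 0, 3, 0, 0 and 1 at an adjusted p under 0.05, beside 0%, 16.4%, 0%, 0% and 11.4%. It gave 2, 3, 1, 0 and 2 unadjusted with 2-fold, beside 3286 of 23913, 4217 of 23243, 1864 of 23846, 755 of 22396 and 5078 of 23738 probes. Neither the fit of only the groups compared nor the t-test was run for the interaction. With the replicate block the counts were 5, 3, 0, 0, 2 and 1, beside 20.9%, 18.8%, 8.03%, 3.63%, 25.8% and 2.74% of all probes. The numbers name an siRNA in siUHRF1 groups and no known pairing in siCONT groups, and deviations of same-numbered arrays correlated at 0.34 between the siUHRF1 groups and at -0.06 to 0.07 elsewhere. The slide as a block was not run because there was 1 slide. Leaving out each array in turn gave 2 to 6, 0 to 3, 0 to 2, 0 to 1, 1 to 3 and 0 to 3. The count for TSA in depleted cells was 2 without siUHRF1 TSA 1. That for TSA in siCONT was 0 or 1 without any 1 siCONT array. That for depletion under TSA was 2 without either siUHRF1 mock array and 1 without siUHRF1 TSA 2. The combination had 1 without siCONT mock 1. The interaction had 3 without siUHRF1 mock 2 and 2 without siUHRF1 TSA 2. The cause was not tested. Of 32 member results followed, 1 reversed. The interaction of TGFB2, -0.59 as reported, was 0.12 after normexp correction and ranged from -1.28 to 0.10 over left-out arrays, the latter without siUHRF1 mock 1. Median scaling moved the median change of all probes in the combination from -0.14 to -0.54, and its calls from 3453 higher and 2625 lower to 2588 higher and 5614 lower. Probes near background (TGFB2, SMAD6, BMP7) have only bounds where dim.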
